A study of Homo sapiens with 6 samples.

Results

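The hypoxia-inducible factor (HIF) pathway was examined through 10 genes: the oxygen-regulated subunit HIF1A, the prolyl hydroxylases EGLN1 and EGLN3, and the target genes VEGFA, DDIT4, BNIP3, BNIP3L, P4HA1, KDM3A and ANKRD37, none of which is a glycolytic enzyme. They were found by symbol among 20036 genes measured by RNA-seq. The cells were MV411, a human leukaemia cell line of the monocytic lineage that carries a rearranged KMT2A gene and an activating FLT3 duplication, and its genotype is given as WT in the labels. The treatment lasted 48 h and was either corilagin, a polyphenol from plants, or DMSO, the solvent control, with 3 libraries per group. The dose, the oxygen tension and whether replicates were separate cultures are not given in the sources used here, so the p-values speak of library-to-library spread alone, which could be technical.

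HIF is a dimer of an oxygen-sensitive alpha subunit and the stable partner ARNT. In the presence of oxygen, EGLN enzymes hydroxylate prolines of the alpha subunit, and the VHL ubiquitin ligase then marks it for destruction. HIF activity is therefore set largely at the protein level, which mRNA does not show, and several HIF targets, DDIT4 and VEGFA among them, are also targets of stress-response factors such as ATF4. Targets outside glycolysis restrain mTORC1 (DDIT4), remove mitochondria (BNIP3 and BNIP3L), recruit vessels (VEGFA), hydroxylate collagen (P4HA1) and demethylate histones (KDM3A). EGLN3, EGLN1 and ANKRD37 are themselves induced by HIF in many cells.

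Of the 10 genes, 7 had a mean of at least 1 FPKM (fragments per kilobase, relative to all fragments of that library) and were tested, and all 7 were above 1 FPKM in every library. All 7 were higher after corilagin, by ratios of mean FPKM from 1.38 (KDM3A) to 2.50 (DDIT4), each in limma with an adjusted p under 0.05 over 9868 tested genes. Of all tested genes, 11.9% were called higher in the same fit, 13.5% lower and 25.4% in either direction. In each of the 7 the lowest corilagin library lay above the highest DMSO library, a separation seen in 25.0% of tested genes. EGLN1 and ANKRD37 lay below 0.6 FPKM and EGLN3 was nearly unexpressed, and these 3 did not enter the test. The median log2 difference was 0.78 over the 7 genes and 0.03 over all tested genes. Because RNA came from whole cultures, a change in a share of the cells and a change in RNA per cell cannot be told apart. For each of the 7, p was 0.1 in an exact 2-sided permutation test, the smallest value that 3 against 3 libraries allow.

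**Figure D1:**
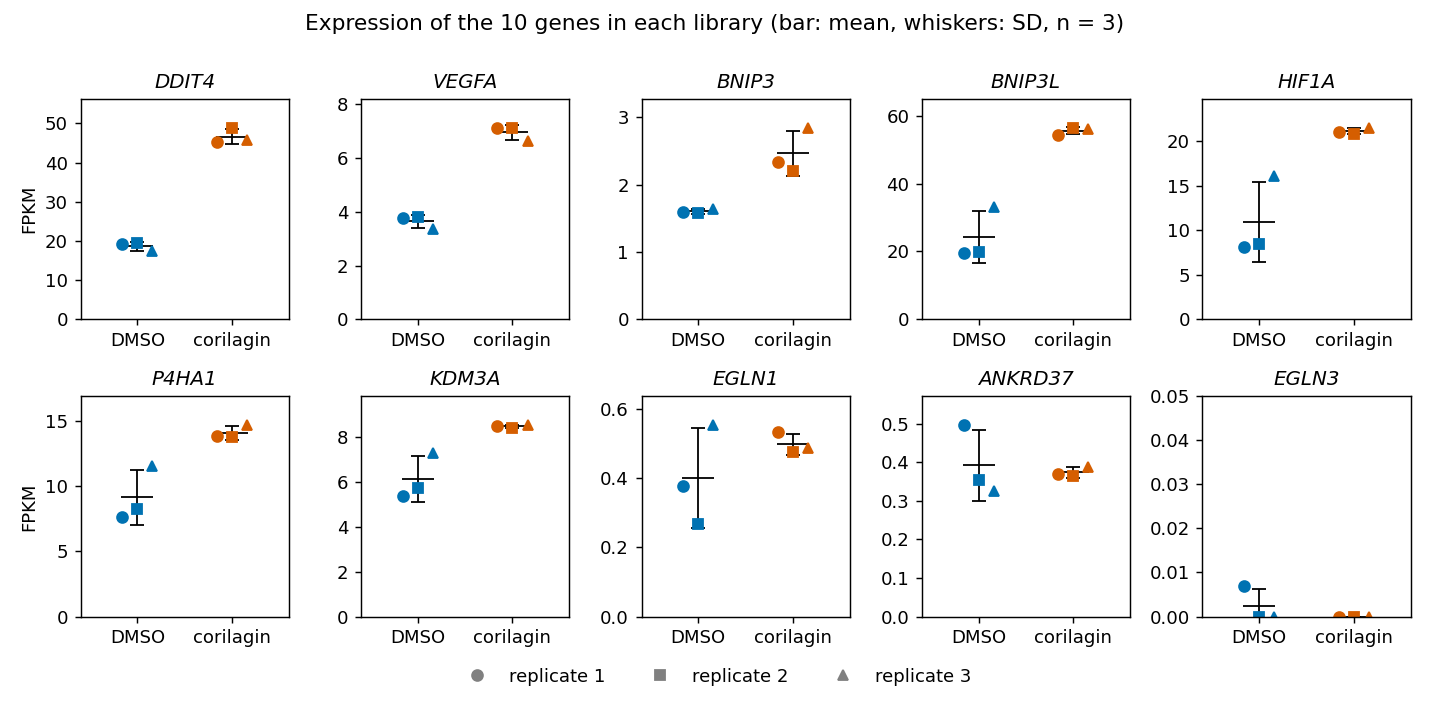
FPKM of the 10 genes in each of the 6 libraries (vertical axes from 0, 1 scale per gene), with DMSO in blue and corilagin in orange, symbols for the replicate, and bars and whiskers for mean and SD (n = 3). DDIT4, VEGFA and BNIP3 have DMSO values close together, whereas DMSO replicate 3 of BNIP3L, HIF1A, P4HA1 and KDM3A lies between the other DMSO libraries and the corilagin libraries.

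The libraries held 17786730 to 21659029 fragments, as recovered from the FPKM steps. All 11 markers of the line were tested, with CD33 at 21.2 to 25.1 FPKM in all libraries and MPO the lowest, at 0.321 to 1.93 FPKM. Of these markers 3 were higher after corilagin (ITGAM, FLT3 and MEIS1, the last not in the GC-corrected fit) and 2 lower. These counts stand beside 11.9% higher and 13.5% lower over all tested genes. MPO and LYZ, which encode myeloperoxidase and lysozyme, fell to 0.298 and 0.625 of DMSO (limma adjusted p = 0.00967 and 0.00502). MPO averaged less than 1 FPKM after corilagin and met the filter only through its DMSO libraries, which limits its call. ITGAM, an integrin of mature myeloid cells, rose 2.05-fold (limma adjusted p = 0.00404). The other 6 markers did not pass, and the median log2 difference of all 11 was -0.07, so the markers did not move together. The part of these marker differences in the results on HIF genes was not tested. Further, 5 of 11 markers of other cell types were at 0 in every library. DMSO replicate 3 stood apart from the other DMSO libraries in step with the GC content of transcripts. In the eighth of tested genes with the lowest GC content (31.3 to 39.0%), its median lay 0.68 log2 units above DMSO replicates 1 and 2, and in the highest eighth it lay at -0.33. The corilagin libraries lay at 0.68 and -0.35 in the same eighths. The part of this in each difference was not tested. Each of the 7 tested genes is therefore given also with this GC trend removed from every library, and against DMSO replicate 3 alone, where that lone library is assumed to vary like the corilagin group. Other genes are given from the uncorrected fit unless stated, and some of their calls differ between the fits. All 7 genes were higher in both of these fits, in which 21.4% and 19.4% of tested genes were called higher.

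The 7 genes formed 2 sets by the position of DMSO replicate 3. On the log2(FPKM + 1) scale it lay 70.3% of the way from DMSO replicates 1 and 2 to the corilagin mean for HIF1A, 64.8% for P4HA1, 63.9% for KDM3A and 49.3% for BNIP3L. The longest transcripts of these 4 genes have 36.4 to 42.5% GC. It lay 7.10% of the way for BNIP3 and on the far side of the other DMSO libraries for DDIT4 (-11.5%) and VEGFA (-18.3%), whose transcripts have 51.4, 58.1 and 54.6% GC. The size of the rise in the first set depends on the DMSO library it is set against, and in the second set hardly does.

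**Figure D2:**
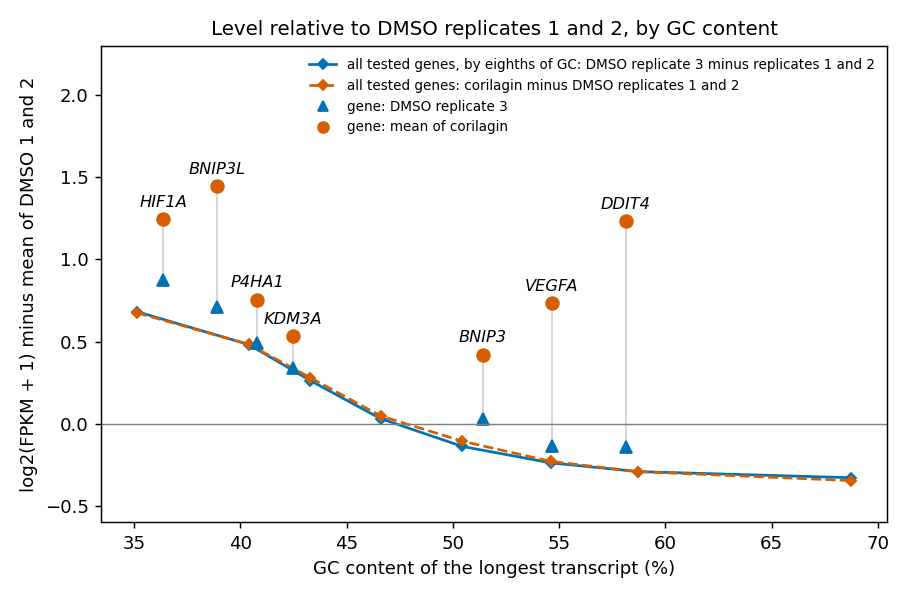
Level of each tested gene in DMSO replicate 3 (triangles) and in the mean of the corilagin libraries (circles), as log2(FPKM + 1) minus the mean of DMSO replicates 1 and 2, against the GC content of its longest transcript (%). The lines give the medians of all tested genes by eighths of GC content, for DMSO replicate 3 (solid) and corilagin (dashed); the 7 corilagin circles lie above both lines, and the triangles of HIF1A, BNIP3L, P4HA1 and KDM3A lie between 0.34 and 0.88.

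HIF1A, the oxygen-regulated subunit (ENSG00000100644, GRCh38 chromosome 14, 61695513 to 61748259, plus strand), was at 21.0, 20.8 and 21.5 FPKM in corilagin replicates 1, 2 and 3 and at 8.17, 8.48 and 16.1 FPKM in the DMSO replicates. The corilagin libraries were almost equal, and DMSO replicate 3 was nearer to them than to the other controls. The mean rose 1.93-fold, from 10.9 ± 4.49 to 21.1 ± 0.345 FPKM (SD, n = 3), with a log2 difference of 0.95 (SE 0.229, limma adjusted p = 0.0277). Once the GC trend was taken out the log2 difference was 0.48 (limma adjusted p = 0.000528), and against DMSO replicate 3 alone the ratio was 1.31. Leaving out any single library except DMSO replicate 3 ended the call, with limma adjusted p of 0.0808 to 0.111, as did having no filter on low values (0.0513). Without DMSO replicate 3 the log2 difference was 1.25.

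ARNT, the constant partner of HIF1A, was at 16.8 to 17.5 FPKM after corilagin and 13.3 to 16.1 FPKM in DMSO and did not pass (log2 difference 0.20, limma adjusted p = 0.124). Against DMSO replicate 3 alone its log2 difference was 0.34. On rescaling to equal library sums ARNT passed (log2 difference 0.31, limma adjusted p = 0.0188), but with the GC trend removed it did not (limma adjusted p = 0.0604). EPAS1, which encodes the HIF-2 alpha subunit, lay below the filter at 0.824 to 1.01 FPKM after corilagin and 0.432 to 0.520 FPKM in DMSO, without overlap. Its ratio was 2.03, and in the limma fit without a filter it was higher (log2 difference 0.40, adjusted p = 0.0124). HIF3A and ARNT2 were at 0.0130 FPKM or less in every library. In MV411 cells HIF1A was thus the alpha subunit with the highest mRNA level per length, in both groups.

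EGLN1 (ENSG00000135766, chromosome 1, 231363751 to 231425044, minus strand), the main oxygen sensor of most cells, was at 0.532, 0.475 and 0.487 FPKM after corilagin and 0.378, 0.269 and 0.554 FPKM in DMSO, from 29 to 62 fragments per library. The groups overlapped, with DMSO replicate 3 the highest of all libraries. In the limma fit without a filter its log2 difference was 0.10 (95% interval -0.08 to 0.28, adjusted p = 0.377). EGLN3 (ENSG00000129521, chromosome 14, 33924231 to 34462774, minus strand), a hydroxylase strongly induced by HIF in many tissues, had 1 fragment in DMSO replicate 1 and 0 in the other libraries, which allows up to 0.0188 to 0.0229 FPKM per library at 3 fragments, a limit that covers counting error only. No ratio was formed for it. EGLN2, the third prolyl hydroxylase, was at 2.18 to 2.48 FPKM after corilagin and 2.34 to 2.59 FPKM in DMSO and did not pass (log2 difference -0.04, limma adjusted p = 0.706). EGLN2 thus had the highest level per length of the 3 prolyl hydroxylases in every library.

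Of the 12 genes that hydroxylate HIF or degrade it, 10 were tested, and 2 were higher, 1 lower and 7 did not pass, with a median log2 difference of 0.04. Of all tested genes 25.4% were called in either direction. ELOB, the elongin B subunit of the VHL ligase, fell from 20.3 ± 3.73 FPKM in DMSO to 12.8 ± 0.276 FPKM (SD, n = 3) (log2 difference -0.61, limma adjusted p = 0.0226; -0.40 with the GC trend removed). SIAH2, a ubiquitin ligase that targets EGLN proteins, rose from 24.1 to 30.0 FPKM in DMSO to 34.4 to 35.6 FPKM (log2 difference 0.36, limma adjusted p = 0.0357), and with median-of-ratios scaling it missed the threshold (limma adjusted p = 0.0628). SIAH1, its relative, was called higher at 0.29 (limma adjusted p = 0.0299), but missed the threshold under quantile normalization (0.111), and the sign turned with the GC trend removed (-0.15, adjusted p = 0.432). VHL itself was at 19.7 to 21.3 FPKM after corilagin and 18.2 to 20.9 FPKM in DMSO, and HIF1AN, the asparagine hydroxylase of HIF, at 10.3 to 10.9 and 9.62 to 11.4 FPKM, and neither passed (limma adjusted p = 0.688 and 0.924). CUL2, ELOC, RBX1 and OS9, which complete the ligase or bind EGLN enzymes, had log2 differences from -0.08 (RBX1) to 0.50 (CUL2) and did not pass either. With the GC trend removed RBX1 was lower (log2 difference -0.28, limma adjusted p = 0.0296).

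Of 12 tested coactivators and inhibitors of HIF, 3 were higher, 2 lower and 7 did not pass (median log2 difference 0.02), beside 11.9% higher and 13.5% lower over all tested genes. The acetyltransferases CREBBP and EP300, which HIF recruits, rose 1.30-fold and 1.24-fold (log2 differences 0.34 and 0.29, limma adjusted p = 0.0286 and 0.0363). Each missed the threshold under another scaling, CREBBP under quantile normalization (limma adjusted p = 0.0704) and EP300 under median-of-ratios scaling (0.0565). HSP90AB1, a chaperone that stabilizes HIF1A among many clients, fell to 0.662 of its DMSO level (log2 difference -0.59, limma adjusted p = 0.00336). HSP90AA1, on the same list, was at 169 to 186 FPKM after corilagin and 101, 122 and 262 FPKM in the DMSO replicates. It did not pass (limma adjusted p = 0.535). MTA1, a chromatin cofactor, fell to 0.783 of DMSO, a call lost in the GC-corrected fit (limma adjusted p = 0.108) and with library sums made equal (0.0512). CITED2, a HIF target that competes for CREBBP and EP300, was at 36.1 to 38.4 FPKM after corilagin and 40.1 to 49.1 FPKM in DMSO and did not pass (limma adjusted p = 0.0644). In the GC-corrected fit CITED2 was lower (log2 difference -0.28, limma adjusted p = 0.0133).

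DDIT4 (REDD1), which activates the TSC complex and thereby restrains mTORC1 (ENSG00000168209, chromosome 10, 72273920 to 72276036, plus strand), was at 45.3, 48.9 and 45.6 FPKM after corilagin and 19.1, 19.4 and 17.3 FPKM in DMSO. The groups were far apart, the lowest corilagin library being 2.34 times the highest DMSO library. The mean rose 2.50-fold, from 18.6 ± 1.10 to 46.6 ± 1.97 FPKM (SD, n = 3), with a log2 difference of 1.28 (SE 0.0806, limma adjusted p = 0.00101), rank 22 among the 9868 tested genes. It was 1.46 with the GC trend removed and 1.37 against DMSO replicate 3 alone, rank 9 in both. The call was kept in all 18 alternatives. Of the 2058 exonic bases of DDIT4, 41.2% lie under exons of the antisense gene DDIT4-AS1, whose reads cannot be told apart where strand was not kept.

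The promoter of DDIT4 is shown because it belongs to the member with the largest log2 difference over all 6 libraries and holds the core of the HIF response element, ACGTG or GCGTG, on the gene's strand. Capitals mark these cores in the 300 bases (250 before and 50 after the annotated start) given by RefSeq at chr10:72273674-72273973 (GRCh38.p14, plus strand).
DDIT4: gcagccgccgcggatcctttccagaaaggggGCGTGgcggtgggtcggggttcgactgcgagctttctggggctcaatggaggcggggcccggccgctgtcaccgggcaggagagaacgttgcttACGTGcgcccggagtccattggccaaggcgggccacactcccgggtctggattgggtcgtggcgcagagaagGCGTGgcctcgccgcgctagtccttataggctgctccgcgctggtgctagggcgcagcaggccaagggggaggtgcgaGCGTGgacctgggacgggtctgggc
One ACGTG and 3 GCGTG cores were found. Over both strands, ACGTG was present in 21.4%, GCGTG in 36.5% and either one in 48.4% of 35116 promoter windows of this length, so a match describes the letters and not a bound site.

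Leaving out DDIT4, 29 regulators of mTORC1 were tested, of which 4 were higher and 4 lower, with a median log2 difference of -0.05. These counts stand beside 11.9% higher and 13.5% lower over all tested genes. The GC-corrected fit called 8 higher and 4 lower, beside 21.4% and 23.0%. FNIP1, a partner of folliculin, rose from 4.14, 4.42 and 7.92 FPKM in the DMSO replicates to 10.6, 10.7 and 9.98 FPKM (log2 difference 0.86, limma adjusted p = 0.0269; 0.46 with the GC trend removed). LAMTOR2, a subunit of the Ragulator scaffold that holds mTORC1 at the lysosome, fell to 0.599 of its DMSO level (log2 difference -0.71, limma adjusted p = 0.0119). DEPTOR, an inhibitor within mTOR complexes, fell to 0.669 of DMSO (limma adjusted p = 0.0377), a call lost on rescaling to equal library sums (0.0737) and without a filter (0.0701). SESN2, a leucine sensor and stress-induced inhibitor of mTORC1 chosen here after its value was seen, rose 1.79-fold, from 6.32 to 8.51 FPKM in DMSO to 13.2 to 14.3 FPKM (limma adjusted p = 0.00767). TSC1, TSC2, RHEB, MTOR and RPTOR did not pass.

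BNIP3L (NIX), an outer-membrane receptor that links mitochondria to the autophagy machinery (ENSG00000104765, chromosome 8, 26382898 to 26505636, plus strand), was at 54.4, 56.5 and 55.9 FPKM after corilagin and 19.7, 19.9 and 33.0 FPKM in DMSO. DMSO replicate 3 lay between the groups, and the lowest corilagin library was still 1.65 times as high. The mean rose 2.30-fold, from 24.2 ± 7.66 to 55.6 ± 1.06 FPKM (log2 difference 1.21, SE 0.190, limma adjusted p = 0.00847). The log2 difference was 0.81 in the GC-corrected fit (limma adjusted p = 4.12e-05) and 0.73 against DMSO replicate 3 alone, a ratio of 1.68. Its call was lost without any one corilagin library, narrowly, at limma adjusted p of 0.0519 to 0.0549. Of its exonic bases 7.66% lie under the gene PNMA2.

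BNIP3, the paralog of BNIP3L and likewise a mitophagy receptor (ENSG00000176171, chromosome 10, 131966455 to 131982013, minus strand), was expressed at a much lower level per length than BNIP3L in every library. It was at 2.34, 2.21 and 2.85 FPKM after corilagin and 1.60, 1.58 and 1.64 FPKM in DMSO, from 118 to 211 fragments. The DMSO libraries were nearly equal, and all corilagin libraries lay above them. The mean rose 1.54-fold, from 1.60 ± 0.0326 to 2.46 ± 0.337 FPKM (log2 difference 0.41, SE 0.0895, limma adjusted p = 0.0217; 0.49 with the GC trend removed and 0.39 against DMSO replicate 3 alone). Leaving out any single library except DMSO replicate 3 ended the call (limma adjusted p of 0.0659 to 0.0868), as did quantile normalization (0.0544).

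The BNIP3 promoter is shown because it is the most crowded of the 8 promoters at hand, with a cluster of response-element cores read mostly from the opposite strand (CACGC for GCGTG). The window is chr10:131981874-131982173 (GRCh38.p14, RefSeq, minus strand), with the cores of either strand in capitals.
BNIP3: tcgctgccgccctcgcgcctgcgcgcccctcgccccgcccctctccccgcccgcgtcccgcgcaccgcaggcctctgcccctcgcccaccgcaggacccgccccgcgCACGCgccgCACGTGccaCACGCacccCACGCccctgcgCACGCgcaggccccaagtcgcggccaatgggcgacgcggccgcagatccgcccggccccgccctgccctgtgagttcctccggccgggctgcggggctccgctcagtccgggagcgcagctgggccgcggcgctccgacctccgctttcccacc
It holds 4 GCGTG and 2 ACGTG matches. The 2 ACGTG matches are the same 6 bases read from each strand, the palindrome CACGTG, which was present in 7.26% of all windows.

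Other genes of mitophagy moved in both directions. Leaving out BNIP3 and BNIP3L, 27 receptors and machinery genes were tested, of which 7 were higher and 3 lower, with a median log2 difference of 0.14, beside 11.9% and 13.5% of all tested genes. The GC-corrected fit called 10 higher and 6 lower, beside 21.4% and 23.0% of all tested genes. OPTN, an adaptor that binds ubiquitin on damaged mitochondria, rose from 8.38, 8.80 and 10.4 FPKM in the DMSO replicates to 13.1, 14.3 and 13.4 FPKM (log2 difference 0.52, limma adjusted p = 0.0146). PGAM5, a mitochondrial phosphatase that acts on the receptor FUNDC1, fell to 0.576 of its DMSO level (log2 difference -0.75, limma adjusted p = 0.0118). PHB2, an inner-membrane prohibitin that serves as a receptor once the outer membrane is open, fell to 0.619 of DMSO (log2 difference -0.67, limma adjusted p = 0.0142). PPTC7, a phosphatase that limits BNIP3 and BNIP3L protein and was chosen after its value was seen, rose 1.39-fold, from 11.2, 11.7 and 15.9 FPKM to between 17.6 and 18.5 FPKM (limma adjusted p = 0.0428, or 0.0681 without a filter). FUNDC1, PINK1 and FKBP8, further receptors or sensors, did not pass (limma adjusted p = 0.0734, 0.0547 and 0.0822).

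VEGFA, the vascular growth factor (ENSG00000112715, chromosome 6, 43770184 to 43786487, plus strand), was at 7.12, 7.13 and 6.65 FPKM after corilagin and 3.76, 3.83 and 3.37 FPKM in DMSO. The DMSO libraries were close together and all corilagin libraries lay at least 1.74 times above them. The mean rose 1.91-fold, from 3.65 ± 0.248 to 6.97 ± 0.276 FPKM (log2 difference 0.78, SE 0.0830, limma adjusted p = 0.00297). It was 0.91 with the GC trend removed and 0.87 against DMSO replicate 3 alone, and the call was kept in all 18 alternatives. Of 10 VEGF ligands and receptors only 3 were tested. NRP1, a coreceptor, rose 1.54-fold from 3.43 to 4.52 FPKM in DMSO to 5.94 to 6.11 FPKM (limma adjusted p = 0.0150), VEGFB did not pass (limma adjusted p = 0.0637), and the receptors KDR and FLT4 were at 0.0172 FPKM or less. FLT1, another receptor, lay below the filter at 0.280 to 0.370 FPKM after corilagin and 0.0238 to 0.152 FPKM in DMSO.

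P4HA1, the catalytic subunit of collagen prolyl 4-hydroxylase (ENSG00000122884, chromosome 10, 73007217 to 73096974, minus strand), was at 13.8, 13.8 and 14.7 FPKM after corilagin and 7.66, 8.25 and 11.6 FPKM in DMSO. DMSO replicate 3 lay nearer to the corilagin libraries than to the other controls. The mean rose 1.54-fold, from 9.16 ± 2.10 to 14.1 ± 0.521 FPKM (log2 difference 0.59, SE 0.144, limma adjusted p = 0.0287), and the log2 difference was 0.27 both with the GC trend removed and against DMSO replicate 3 alone. Its call, too, ended when any single library except DMSO replicate 3 was left out (limma adjusted p of 0.0840 to 0.119). Of the 8 tested collagen-modifying hydroxylases, P4HA1 included, 1 was higher, 1 lower and 6 did not pass. The shares of 12.5% higher and 12.5% lower were near the 11.9% and 13.5% of all tested genes. P4HA1 was the higher one, and the lysyl hydroxylase PLOD3 fell to 0.605 of DMSO (limma adjusted p = 0.00998). The isoforms P4HA2 and P4HA3 were at 0.167 FPKM or less.

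KDM3A, which removes methyl groups from lysine 9 of histone H3 (ENSG00000115548, chromosome 2, 86440647 to 86492716, plus strand), was at 8.51, 8.43 and 8.55 FPKM after corilagin and 5.39, 5.76 and 7.31 FPKM in DMSO. It had the smallest ratio of the 7 genes, 1.38, from 6.15 ± 1.02 to 8.49 ± 0.0635 FPKM (log2 difference 0.42, SE 0.113, limma adjusted p = 0.0371). The log2 difference was 0.19 in the GC-corrected fit (limma adjusted p = 0.0134) and 0.19 against DMSO replicate 3 alone, a ratio of 1.16. The call ended when any single library except DMSO replicate 3 was left out (limma adjusted p of 0.113 to 0.137) and without a filter (0.0597). Among 19 tested histone demethylases and related oxygenases of the JmjC class, KDM3A included, 2 were higher, 1 lower and 16 did not pass, a share of higher genes (10.5%) near the 11.9% of all tested genes. The GC-corrected fit called 6 higher and 3 lower, beside 21.4% and 23.0% of all tested genes. KDM4C rose 1.29-fold (limma adjusted p = 0.0360), a call lost under median-of-ratios scaling (0.0520), quantile normalization (0.144) and no filter (0.0662), and RIOX1 fell to 0.749 of DMSO (limma adjusted p = 0.0424), a call lost on rescaling to equal library sums (0.0523) and without a filter (0.0654).

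ANKRD37, an ankyrin-repeat protein widely used as a HIF target gene (ENSG00000186352, chromosome 4, 185396021 to 185400628, plus strand), was at 0.369, 0.363 and 0.388 FPKM after corilagin and 0.497, 0.354 and 0.325 FPKM in DMSO, from 13 to 22 fragments. The groups overlapped, and the highest and the lowest value were both in DMSO libraries. In the limma fit without a filter its log2 difference was -0.02 (95% interval -0.14 to 0.10, adjusted p = 0.839). Of its exonic bases 35.2% lie under the neighbouring gene UFSP2, and reads shared by overlapping genes may have been left uncounted.

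The promoters of ANKRD37 and P4HA1 are set side by side because both hold ACGTG, at 3 and 1 matches. Of the 3, a pair is 1 CACGTG palindrome read from each strand. The transcripts differed in level per length. Whether their responses differed was not tested, as ANKRD37 lay below the filter. Both promoters are RefSeq windows of GRCh38.p14, chr4:185396591-185396890 on the plus strand and chr10:73096817-73097116 on the minus strand. The cores of either strand are in capitals.
ANKRD37: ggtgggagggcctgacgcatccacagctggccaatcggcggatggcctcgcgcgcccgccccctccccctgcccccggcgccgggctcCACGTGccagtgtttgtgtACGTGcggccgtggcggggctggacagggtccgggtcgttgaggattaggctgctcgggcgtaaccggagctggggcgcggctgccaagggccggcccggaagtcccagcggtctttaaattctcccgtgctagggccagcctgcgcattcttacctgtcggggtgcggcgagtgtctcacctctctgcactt
P4HA1: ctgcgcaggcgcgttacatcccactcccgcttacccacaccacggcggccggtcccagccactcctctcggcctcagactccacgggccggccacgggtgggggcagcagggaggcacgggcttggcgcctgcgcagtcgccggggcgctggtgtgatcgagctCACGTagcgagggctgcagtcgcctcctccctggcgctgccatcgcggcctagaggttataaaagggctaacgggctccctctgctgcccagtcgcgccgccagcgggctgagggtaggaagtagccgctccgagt
Of the other promoters at hand, that of EGLN1 held 1 ACGTG, the upstream window of HIF1A 1 GCGTG, the 2 overlapping KDM3A windows 1 and the same GCGTG, and that of EGLN3 no match of either core.

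**Figure D3:**
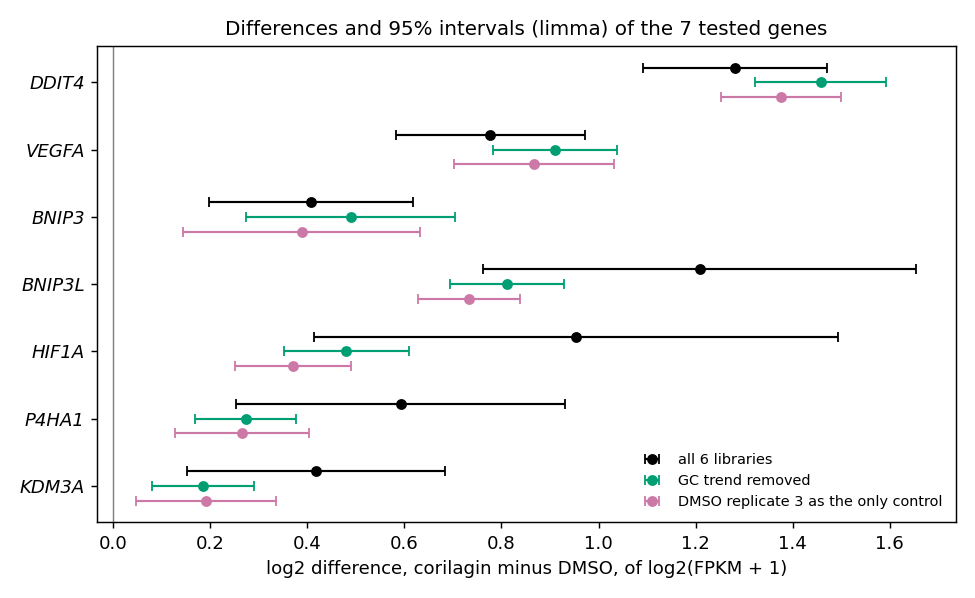
Log2 difference of corilagin minus DMSO on the log2(FPKM + 1) scale with 95% intervals from limma for the 7 tested genes, with all 6 libraries (black), with the GC trend removed (green) and with DMSO replicate 3 as the only control (pink). No interval reaches 0; the values of HIF1A, BNIP3L, P4HA1 and KDM3A shrink in both alternatives (HIF1A from 0.95 to 0.48 and 0.37), and those of DDIT4 and VEGFA do not.

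Beyond the 7 genes, HIF targets outside glycolysis moved in both directions. Of 48 such genes 32 were tested, and 14 were higher, 2 lower and 16 did not pass (median log2 difference 0.27). Leaving out the 6 tested members on the list, 8 of 26 were higher and 2 lower (median 0.23), beside 11.9% and 13.5% of all tested genes. The GC-corrected fit called 11 higher and 9 lower, beside 21.4% and 23.0%. TFRC, the transferrin receptor, rose 3.97-fold, from 19.2, 19.4 and 25.5 FPKM in the DMSO replicates to 83.3 to 87.1 FPKM (limma adjusted p = 0.00101). FOS, an immediate early factor, fell to 0.560 of its DMSO level (log2 difference -0.82, limma adjusted p = 0.00287). The chemokine receptor CXCR4 fell to 0.664 of DMSO, from 24.2 to 27.6 FPKM to 17.1 to 18.1 FPKM (limma adjusted p = 0.00771). Hypoxia markers differed widely in level per length. CA9 was at 0.0318 FPKM or less and ADM at 0.176 FPKM or less in every library. NDRG1, at 9.67 to 10.6 FPKM after corilagin and 7.66 to 10.4 FPKM in DMSO, did not pass (limma adjusted p = 0.561). Against DMSO replicate 3 alone its log2 difference was 0.35.

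Glycolytic HIF targets had a median of the opposite sign, -0.30. The median was nearer to 0 in the GC-corrected fit (-0.11) and against DMSO replicate 3 alone (-0.08). Of 23 tested genes, 5 were higher, 8 lower and 10 did not pass, beside 11.9% higher and 13.5% lower over all tested genes. The GC-corrected fit called 7 higher and 11 lower (21.4% and 23.0% over all), and the fit against DMSO replicate 3 alone 7 and 7 (19.4% and 18.6%). GPI, glucose-6-phosphate isomerase, fell to 0.593 of DMSO (log2 difference -0.72, limma adjusted p = 0.0112), and ENO1, the main enolase, to 0.640 (limma adjusted p = 0.0170). The isoenzymes ALDOC and ENO2 rose 1.84-fold and 1.54-fold from 5.51 to 9.02 and 2.12 to 2.53 FPKM in DMSO (limma adjusted p = 0.0159 and 0.0153). ALDOA, the muscle-type aldolase found in most cells, was listed at 0.543 to 1.09 FPKM, and 42.3% of its exonic bases lie under another gene of the table.

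**Figure D4:**
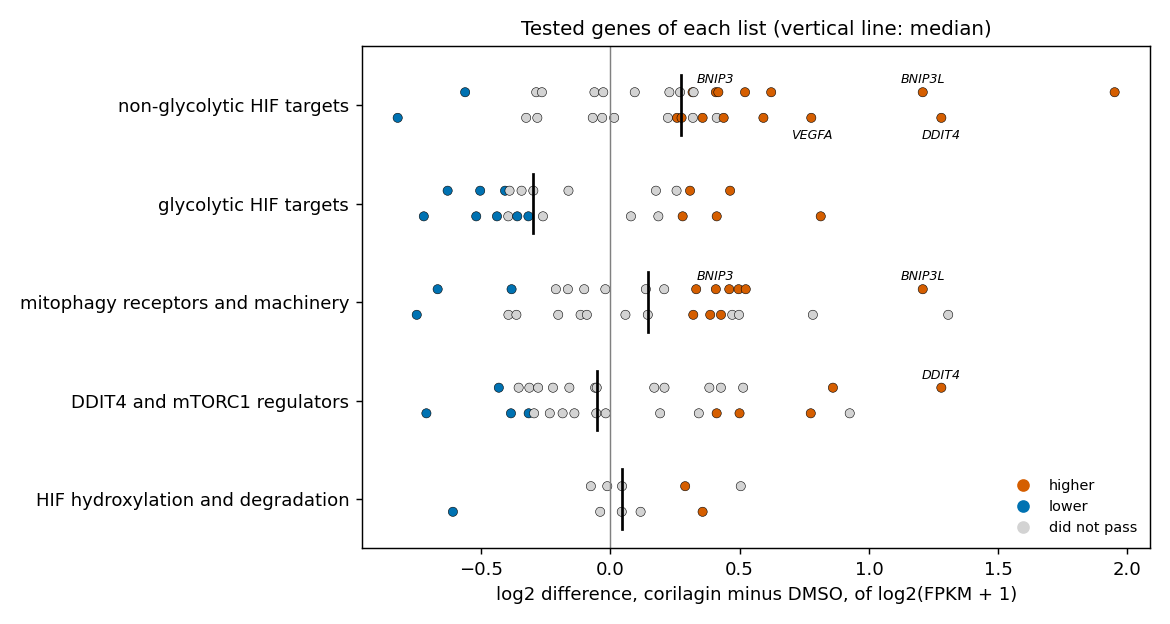
Log2 difference of corilagin minus DMSO on the log2(FPKM + 1) scale for each tested gene of 5 lists, coloured by its call in limma (orange higher, blue lower, grey did not pass), with a vertical line at the list's median. Members included, the medians are 0.27 for non-glycolytic and -0.30 for glycolytic HIF targets, 0.15 for mitophagy genes, -0.05 for mTORC1 regulators and 0.04 for HIF hydroxylation and degradation.

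The genes whose values over the 6 libraries were most like those of DDIT4 and BNIP3L were sought among the 6570 genes averaging 5 FPKM or more, by the root mean square difference of log2(FPKM + 1) after subtraction of each gene's mean. Nearest to DDIT4 were CHAC1 (0.0702 log2 units), a glutathione-degrading enzyme, TXNIP (0.0878), an inhibitor of thioredoxin, NCF1 (0.0997), a subunit of the phagocyte oxidase, CD101 (0.105) and NIBAN1 (0.143). CHAC1 averaged 8.57 ± 0.798 FPKM with corilagin and 2.86 ± 0.130 FPKM with DMSO (SD, n = 3), so that, as for DDIT4, the DMSO libraries lay close together. Among the nearest to BNIP3L were CHURC1 (0.0333), IDI1 (0.0586), STARD4 (0.0628) and CLDND1 (0.0776). IDI1 is an enzyme of sterol synthesis and STARD4 is a sterol carrier. IDI1 averaged 61.8 ± 0.396 FPKM with corilagin and 26.8 ± 7.79 FPKM with DMSO (SD, n = 3), again with DMSO replicate 3 the highest control, at 35.6 FPKM. NCF1 has near-identical pseudogenes, and its reads are hard to assign.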

How the data were processed

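The deposited data are 1 table, in which the authors give FPKM of 20036 genes, by Ensembl identifier, in each of 6 libraries. The submitters' processing notes name fastp 0.22.0, HISAT2 2.1.0, HTSeq 0.9.1, DESeq 1.38.3 and GRCh38, without settings. The labels' protocols describe poly(A) selection and random priming and do not state that strand was kept. FPKM is relative to the library total, so a few abundant genes can shift all others, and counting can drop reads shared by overlapping genes.

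Symbols were matched for 20011 genes, and coordinates and transcript GC content came from GENCODE 29. Whole fragments were recovered from the FPKM steps for all 15921 genes above 0, accepting multiples within 0.01 of a whole number, with a common factor restored for 315 genes from the annotated exon length. The totals are therefore approximate. No 2 libraries were identical.

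Groups were compared with limma 3.58.1 (R 4.3.3; lmFit, then eBayes with a mean trend, 2-sided). It was run on log2(FPKM + 1) of all 6 libraries, with no covariate. The 9868 genes averaging 1 FPKM or more entered it. Their p-values were adjusted together by Benjamini-Hochberg, with calls made under 0.05. The added 1 shrinks log2 differences of genes at low FPKM, and ratios are therefore of mean FPKM. For the GC trend, each library's deviations from the gene means were regressed on GC content (natural spline, 5 df) and the residuals kept. GC content was known for 9859 tested genes, and the others were left as they were. This step also takes out any true difference that follows GC content. Only the uncorrected and the GC-corrected limma fits were tried on simulated data, and the other alternatives were not. The fit against DMSO replicate 3 alone was added after the data were seen.

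Members, lists and alternatives were chosen with earlier results of these data known. Named genes were the 10 members, the HIF subunits and HIF hydroxylation and degradation genes, the 2 largest rises and 2 largest falls past the threshold in each other list, and the 5 genes most like DDIT4 and BNIP3L, of which 1 is not reported here. Other genes named beside a list (CITED2, HSP90AA1, SESN2 and further mTORC1 genes, PPTC7 and further mitophagy receptors, VEGF receptors and VEGFB, P4HA2, P4HA3, CA9, ADM, NDRG1, ALDOA and the line markers) were chosen after their values were seen.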

Additional observations from a re-analysis of the deposited data

How the results depend on the processing

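All 7 tested members kept their direction under every alternative run. DDIT4 and VEGFA kept their calls in all 18, BNIP3L in 15 of 18, P4HA1 in 13 of 18, HIF1A and KDM3A in 12 of 18 and BNIP3 in 11 of 17, being under the filter of 5 FPKM. All 7 were higher with limma-voom on recovered fragments, with pseudocounts of 0.1 and 0.5 and under both GC-corrected fits, 6 with quantile normalization, and 5 without a filter. Leaving out 1 library left 2 to 7 members higher: 2 (DDIT4 and VEGFA) without any one corilagin library, 3 (with BNIP3L) without DMSO replicate 1 or 2, and 7 without DMSO replicate 3. Over all genes, 1171 were higher and 1331 lower. Leaving out 1 library gave 131 to 4030 higher and 176 to 3597 lower, the highest counts without DMSO replicate 3. With the GC trend removed 2109 were higher and 2269 lower, or 2105 and 2209 with the replicate block as well. The filter of 5 FPKM left 713 higher, with fewer genes tested, and 1916 were higher against DMSO replicate 3 alone. Rescaling to equal library sums gave 1620 higher and 1059 lower (60.5% higher, against 46.8% as deposited) and took the median log2 difference over tested genes from 0.035 to 0.136. The cause of the other shifts was not tested. The replicate block gave 1547 higher and 1330 lower, with all 7 members higher. Deviations of libraries with the same number had correlations of 0.280, 0.079 and 0.339 over genes. The labels state no model or batch, so the numbers were not taken as pairs in the main fit, although 5 of 6 libraries matched their own number best. Corilagin replicate 1 matched DMSO replicates 1 and 2 almost equally (0.280 and 0.279), so these correlations cannot decide whether the numbers mark pairs. The fits without single libraries covered all tested genes, but for genes outside the 10 only the counts over all genes are given. Depth limits EGLN1, EGLN3 and ANKRD37, with at most 62 fragments per library.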
